A study of Mus musculus with 11 samples.

Results

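miR-203 and miR-205 are the 2 members described here, out of 334 mouse miRNAs on a custom Agilent miRNA array. They were chosen by name, from the spots of the deposited value table whose probe annotation holds mmu-miR-203 or mmu-miR-205, and each had 4 replicate spots on every array. The arrays held RNA of normal mammary tissue of pregnant female mice of the strains FVB (n = 2), Balbc (n = 3) and FVB129B6 (n = 3), and of primary mammary tumors of female C3TAg mice on the FVB strain (n = 3). No treatment was given to any group, and the pregnant glands were taken late in gestation. C3TAg mice carry the SV40 T and t antigens under the C3(1) promoter, the flanking region of a rat prostate steroid binding protein gene that is active in mammary ductal cells. The tumors were single tumors of single mice in one transgenic model, and no gland came from a C3TAg mouse. Titles of 2 of the Balbc arrays differ only by the letters L and R, so these may be glands of 1 mouse. Within a group the other titles carry different numbers, which the labels do not explain, so separate animals are not certain for the glands. The p-values measure the spread between these samples.

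A miRNA is a short RNA that pairs through its seed, bases 2 to 8, with messenger RNAs and lowers their output. In stratified epithelia such as skin, miR-203 is known from the suprabasal, differentiating layers, where it restrains the proliferative potential of progenitors by repressing the basal factor p63. miR-205 is known from basal and progenitor cells of skin, prostate and mammary gland, and it represses ZEB1 and ZEB2, repressors of the epithelial state. In the mammary gland, the luminal layer produces milk in late pregnancy and the basal, or myoepithelial, layer surrounds it. The arrays measured whole tissue, so that fewer cells of a type and less of the RNA per cell cannot be told apart.

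The mature sequences are shown because each probe reads 1 of them, and because the seeds of the members differ. They were taken from RefSeq (build GRCm38.p6), with the seed in capitals.
miR-203 (mmu-miR-203-3p): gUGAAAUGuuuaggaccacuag
miR-205 (mmu-miR-205-5p): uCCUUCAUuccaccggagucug
The mature miR-203 lies at chr12:112130927-112130948 on the plus strand. Its hairpin gene Mir203 is overlapped by another annotated hairpin gene, Mir203b. The mature miR-205 lies at chr1:193507503-193507524 on the minus strand, and its hairpin gene Mir205 falls within the span of Mir205hg, a long noncoding RNA gene. In RefSeq, neither seed was shared with another mouse miRNA, nor was it shared with any other of the 238 array miRNAs whose probe could be matched to a RefSeq mature sequence.

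Each probe of 60 bases opened with the antisense of its miRNA and went on with a linker common to the array. The antisense parts are shown to tell which bases of each miRNA the signal rests on, with the complement of the seed in capitals.
miR-203 probe part: ctagtggtcctaaaCATTTCA
miR-205 probe part: cagactccggtggaATGAAGGa
The miR-203 part covered bases 2 to 22 of the mature form and the miR-205 part bases 1 to 22. The remaining 39 and 38 bases were those most frequent at their positions over the 334 probes. The nearest other probe lay 8 base edits from the miR-203 part (miR-805) and 7 from the miR-205 part (miR-682), and the members lay 14 edits apart.

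Levels are log2 green signals minus the median of the same array, so that 0 is the array median. The signal is on a different footing in glands and tumors. Of the 334 miRNAs, 209 to 262 were called well above background by the scanner program on the gland arrays, and only 15 to 64 on the tumor arrays. Array medians were 188.5 and 245.5 units on the FVB arrays, 508 to 671.5 on the other gland arrays and 125 to 170 on the tumor arrays. The glands lay on 1 slide and the tumors on another, scored with an older program version, so slide and program cannot be told apart from tissue. On the gland slide both FVB arrays lay in column 4 and no other strain did, so that place and strain cannot be told apart either. As a check of the tissue, the 8 epithelial miRNAs (the miR-200 family and the miR-183 cluster, markers of epithelial cells) were all well above background on every gland array. On the tumor arrays 0 to 4 of the 8 were, miR-200a on 2 arrays and miR-200c, miR-429 and miR-96 on 1 each, while miR-200b, miR-141, miR-182 and miR-183 were on none. No green spot of the array was saturated.

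Both members were well above background in every gland. miR-203 had levels of 4.65 and 3.75 in FVB, 3.32, 3.03 and 3.27 in Balbc, and 3.63, 4.14 and 4.31 in FVB129B6. All 3 Balbc levels lay below all levels of the other strains, while FVB and FVB129B6 overlapped. The share of all miRNAs with strains apart in this way was not counted, so it is not read as particular to miR-203. The strain means were 4.20 ± 0.63 in FVB (SD, n = 2), 4.03 ± 0.35 in FVB129B6 (SD, n = 3) and 3.21 ± 0.15 in Balbc (SD, n = 3). The order was FVB, FVB129B6, Balbc, and the first pair did not differ beyond its spread.

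miR-205 had levels of 5.42 and 6.46 in FVB, 6.17, 5.73 and 6.50 in Balbc, and 5.43, 5.87 and 6.06 in FVB129B6. The 3 strains overlapped in each pair. The means were 6.13 ± 0.39 in Balbc (SD, n = 3), 5.94 ± 0.73 in FVB (SD, n = 2) and 5.79 ± 0.32 in FVB129B6 (SD, n = 3), and no neighbors in this order differed beyond their spread.

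**Figure D1:**
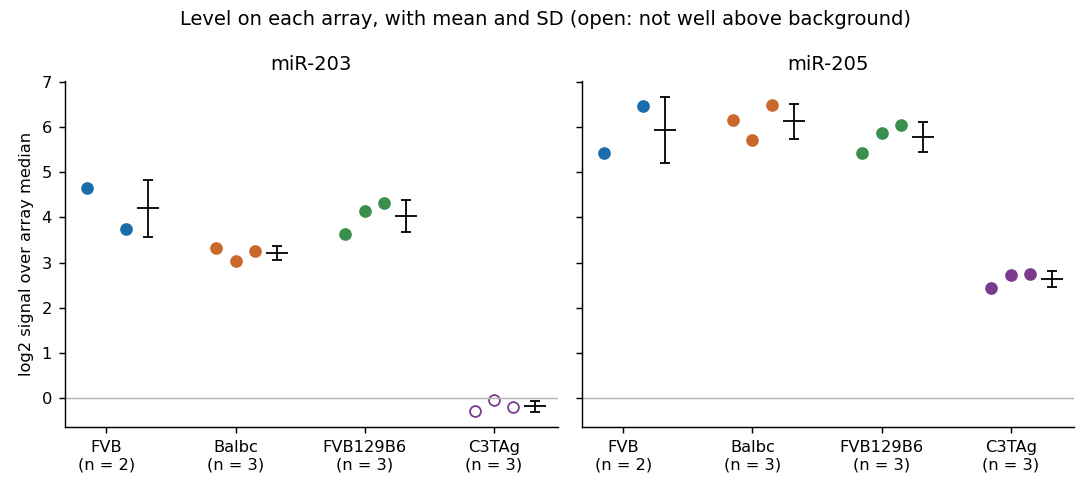
Levels of miR-203 (left) and miR-205 (right) as log2 green signal over the array median, 1 point per array, with the mean and SD of each group beside the points. The Balbc points of miR-203 lie at 3.03 to 3.32, below those of the other strains, while the strains overlap for miR-205, and the tumors (open for miR-203, where no spot was well above background) lie lowest for both on this scale, an order that turns for miR-205 with quantile normalization (0.37 against the glands).

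In the glands the replicate spots agreed closely. The 4 spots of a member on an array had an SD of at most 0.24 on the log2 scale, and 32 of 32 gland spots of each member were well above background. The miR-203 signals ran from 2450 to 12200 units over the gland spots, and those of miR-205 from 10200 to 53700. The spread within a strain was thus between arrays, not between spots.

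The FVB arrays disagreed with each other in opposite directions for the members. From replicate 1 to replicate 2 the miR-203 level differed by -0.89, which is 1.86-fold, and the miR-205 level by 1.04, which is 2.05-fold. Of the 205 miRNAs well above background on both FVB arrays, 16 had a lower difference than miR-203 and 14 a higher one than miR-205. The median of the 205 was 0.17, with quartiles of -0.19 and 0.53.

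The first question was whether the strain of the gland alone changes the members. miR-203 was lower in Balbc than in FVB, by 0.99 in the mean log2 level or 1.99-fold (limma, SE 0.31, difference -0.99, adjusted p = 0.0392 over 261 miRNAs). It was the 1 member of 2 called in this comparison, in which 37.9% of the miRNAs tested were called, 32.2% as lower. The F-test over the 3 strains called miR-203 too, with a range of strain means of 0.99 (limma, adjusted p = 0.0481), beside 46% of all miRNAs. That call was lost in 14 of 24 alternatives, among them every other scaling of the arrays. A large share of the array was thus called beside it. The median of all miRNAs tested was -0.48 between Balbc and FVB, and miR-203 stood 0.51 below that median (-0.51).

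The call between Balbc and FVB rested on the array median. With the 75th percentile of each array in its place, which moved the median of all miRNAs to -0.05, the difference was -0.56 (adjusted p = 0.235), with quantile normalization -0.30 (adjusted p = 0.527), and with normexp background correction -0.10 (adjusted p = 0.788). With no scaling at all it was 0.36 (adjusted p = 0.487). Mean spot signals were 4163 to 5823 units in Balbc and 2543 and 6153 in FVB. With the pair of Balbc arrays that may be glands of 1 mouse averaged, it was -0.97 (limma, adjusted p = 0.0708), and with the replicate number as a block -1.08 (limma, adjusted p = 0.0586), so that neither called it. Without FVB replicate 1, the array with the highest level, the difference was -0.55 (adjusted p = 0.193).

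miR-203 was lower in Balbc than in FVB129B6 by a similar amount, with a difference of -0.82 (limma, SE 0.28, 95% interval -1.47 to -0.18, 1.77-fold). The groups did not overlap, with a gap of 0.31 between the highest Balbc and the lowest FVB129B6 level. The share of all miRNAs with these groups apart was not counted. The unadjusted p was 0.0191 and the adjusted p 0.151, in a comparison that called 3.45% of the miRNAs tested, so it was not called. Here the scaling mattered little. The difference stayed between -0.64 and -1.02 over all 24 alternatives run, none of which called it, with adjusted p-values from 0.0732 to 0.350. Between FVB129B6 and FVB the difference was -0.17 (SE 0.31, adjusted p = 0.684), and its sign turned with the scaling, to 0.19 with the 75th percentile. With no scaling it was called higher in FVB129B6, by 1.24 (adjusted p = 0.0287).

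miR-205 was called in none of the strain comparisons under the array median, among them FVB129B6 against FVB, in which 39.5% of the miRNAs tested were called. Balbc minus FVB was 0.19 with a 95% interval of -0.67 to 1.05 (limma, adjusted p = 0.723). FVB129B6 minus FVB was -0.16 with an interval of -1.01 to 0.70 (limma, adjusted p = 0.738), and its sign turned with the 75th percentile, to 0.21. Balbc minus FVB129B6 was 0.35 with an interval of -0.42 to 1.11 (limma, adjusted p = 0.656). These intervals leave room for differences of about the size seen for miR-203. The scaling changed this as well. With no scaling and with normexp, miR-205 was called higher in Balbc than in FVB, by 1.54 (adjusted p = 0.00803) and 1.01 (adjusted p = 0.0401). With no scaling it was also called higher in FVB129B6 than in FVB, by 1.26 (adjusted p = 0.0166), and across strains (adjusted p = 0.0154).

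**Figure D2:**
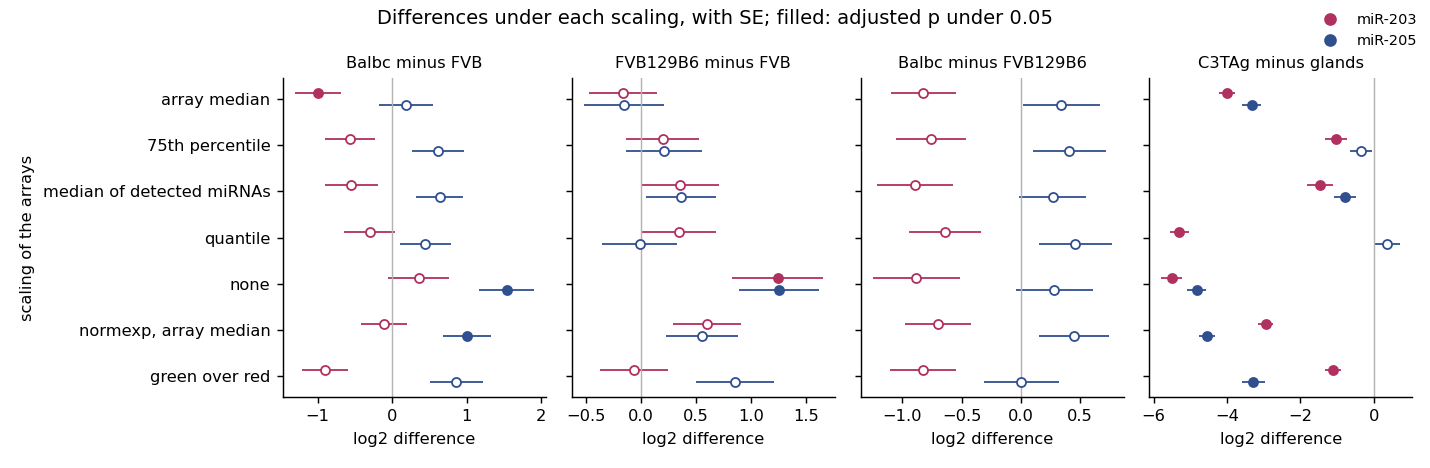
Log2 differences of both members in 4 comparisons under each scaling of the arrays, with the SE as bars and filled points at an adjusted p under 0.05 (limma). The miR-203 difference between Balbc and FVB runs from -0.99 with the array median to 0.36 with none, that between Balbc and FVB129B6 lies between -0.64 and -0.90, and miR-205 in tumors against glands runs from -4.82 with none to 0.37 with quantile normalization.

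A difference between the members on the same array does not depend on any constant scaling of that array. Its size holds the affinities of the probes and is not read as a ratio of miRNA amounts, but its change from array to array can be. miR-203 minus miR-205 was -0.78 and -2.71 in FVB, -2.85, -2.70 and -3.24 in Balbc, and -1.80, -1.73 and -1.75 in FVB129B6. The FVB129B6 arrays lay within 0.07 of each other and all above the Balbc arrays, with a gap of 0.90. The 2 FVB arrays lay apart, 1 above all FVB129B6 arrays and 1 among those of Balbc.

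Between Balbc and FVB129B6 the difference of the members changed by -1.17, from a mean of -1.76 ± 0.03 (SD, n = 3) in FVB129B6 to -2.93 ± 0.28 (SD, n = 3) in Balbc. The exact two-sided permutation test gave p = 0.1, the smallest that 3 arrays against 3 can give, and the adjusted p was 0.3 over the 6 comparisons of this measure. miR-203 being lower (-0.82) and miR-205 higher (0.35) in Balbc both entered it. The change lay between -0.83 and -1.28 over the 14 alternatives run. Over the 3 strains the exact permutation p was 0.175 over 560 relabelings. The range of the strain means of this measure was 1.18 over all glands, 1.17 without FVB replicate 1 and 2.15 without FVB replicate 2. Leaving out either leaves 1 FVB array, so no p-value is given there.

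**Figure D3:**
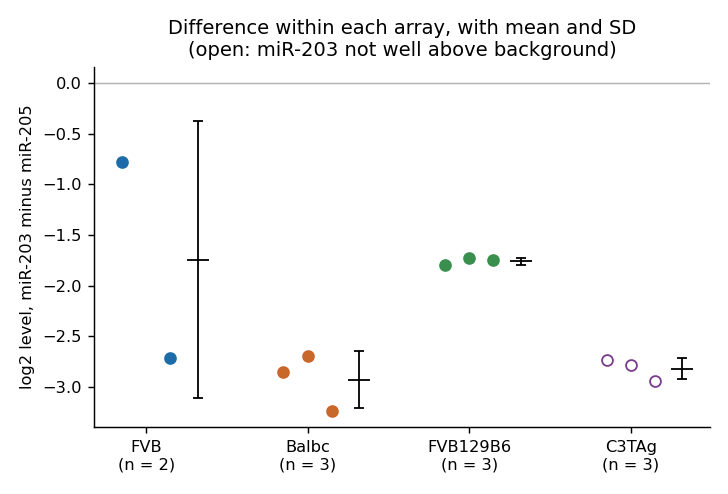
Log2 level of miR-203 minus that of miR-205 within each array, 1 point per array, with the mean and SD of each group (open where miR-203 was not well above background). The 3 FVB129B6 arrays lie at -1.80 to -1.73 and the 3 Balbc arrays at -3.24 to -2.70, while the FVB arrays lie at -0.78 and -2.71.

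The next question was how the members stand in C3TAg tumors against glands. miR-203 had levels of -0.30, -0.06 and -0.20 in the 3 tumors, close to the array median, and 0 of its 12 tumor spots were well above background. miR-205 had levels of 2.43, 2.73 and 2.74, and 8 of its 12 tumor spots were well above background, 3, 2 and 3 on the 3 arrays. miR-205 was thus measured in every tumor and miR-203 in none. Under the array median, every tumor level lay below every gland level of the same member. How many other miRNAs were apart in this way was not counted, and 52.5% of those tested were called lower against the glands.

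The tumor spots of miR-205 disagreed with one another far more than in glands. Their signals differed 13.7-fold, 3.84-fold and 4.65-fold between the lowest and the highest of 4 spots, with an SD between 0.92 and 1.65 on the log2 scale. Over the spots well above background alone the tumor levels were 3.23, 3.46 and 3.20. Over the others they were 0.04, 1.99 and 1.35. Among all miRNAs the median SD of spots was 0.42 to 0.49 on the tumor arrays and 0.07 to 0.10 on the gland arrays.

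**Figure D4:**
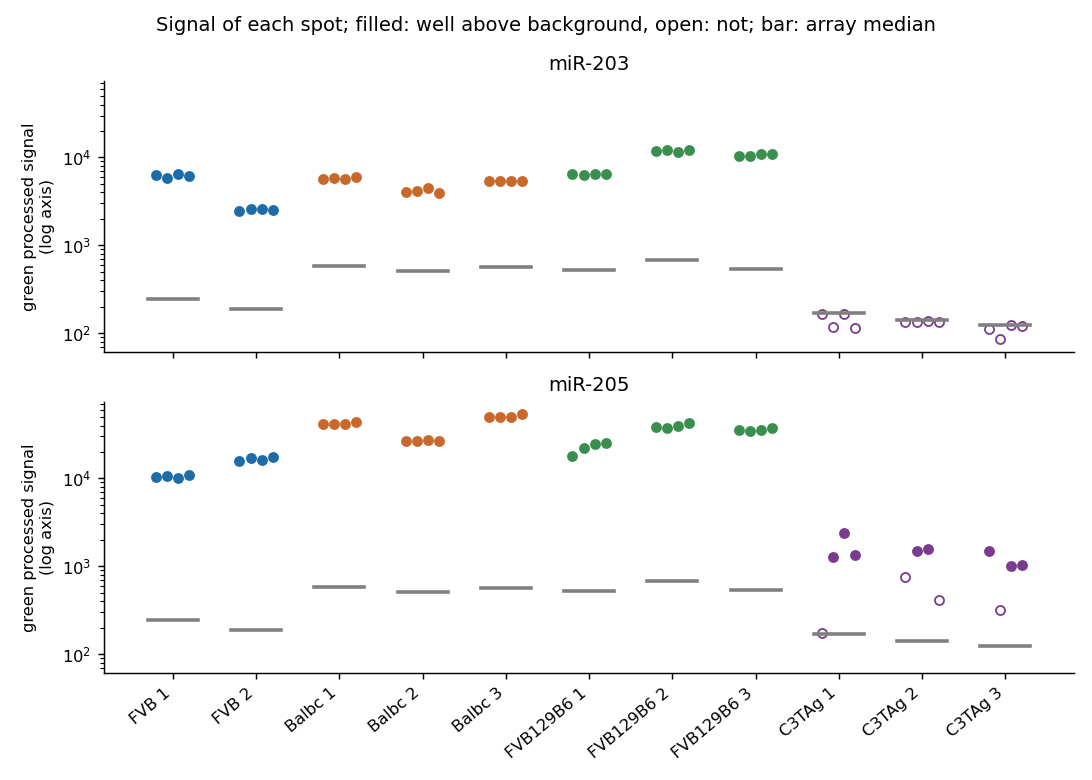
Green processed signal of each of the 4 spots of miR-203 (top) and miR-205 (bottom) on each array, on a log axis, filled where the spot was well above background, with the array median as a bar. All gland spots are filled, the 12 tumor spots of miR-203 are open and sit near the array median, and 8 of the 12 tumor spots of miR-205 are filled.

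Under the array median both members were called lower in the tumors than in the mean of the strain means, a direction that turned for miR-205 with quantile normalization (0.37). In this comparison 90.4% of the 261 miRNAs tested were called, 52.5% as lower. The share called lower depended on the filter. With no filter, 173 of 334 were called higher and 138 lower, and the median of all was 0.67 in place of -0.83. miR-205 fell by 3.32 on the log2 scale, which is 9.99-fold (limma, SE 0.26, adjusted p = 3.52e-07). For miR-203 the tumors gave only a bound, set by the lowest level of any miRNA well above background on each tumor array. By that bound miR-203 was at least 4.04-fold lower than in the glands. The bound is approximate. On tumor replicate 2 a single miR-205 spot at 2.42 was not well above background, though that lowest level was 2.13. The measured means were 3.81 in the glands and -0.19 in the tumors. The adjusted p of 2.29e-08 (limma) belongs to their difference, not to the bound. miR-203 entered this fit through the glands alone, so its call is given as a description.

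Against the FVB glands alone, the strain of the tumors, both members were again called lower under the array median, as were 52.5% of the miRNAs, with 88.1% called in either direction. Here too quantile normalization turned the direction for miR-205 (0.50, adjusted p = 0.404). miR-205 fell by 3.31 (limma, SE 0.34, adjusted p = 5.89e-06), from 5.94 ± 0.73 (SD, n = 2) to 2.63 ± 0.17 (SD, n = 3). miR-203 was at least 5.29-fold lower by the same approximate bound. Its measured difference of -4.39 (limma, adjusted p = 1.81e-07) again rests on tumor values not above background.

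The array median moved these values. The median of all miRNAs tested was -0.83 between tumors and glands with the array median and 2.14 with the 75th percentile, and the miRNAs called were 99 higher and 137 lower with the former and 172 and 70 with the latter. miR-205 stood 2.49 below that median under either (-2.49), as it must where each array is moved by 1 constant, and 0.52 above it with quantile normalization. As an absolute difference it was -0.35 with the 75th percentile (adjusted p = 0.266), and 0.37, in the other direction, with quantile normalization (adjusted p = 0.385). For miR-203, with the 75th percentile, with the median of detected miRNAs and with quantile normalization the bound for the tumors lay above the gland level, so that neither a fold nor a direction can be given there.

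Whether the tumors changed the members unequally could not be read. miR-203 minus miR-205 was -2.74, -2.79 and -2.94 in the tumors, against -3.24 to -0.78 in the glands, a change of -0.63 (exact permutation test, p = 0.255). Since miR-203 was not well above background there, its true level could lie higher or lower. With levels under the detection floor of their array set to that floor, the change was 1.35 (exact permutation test, p = 0.0303), and with normexp it was 1.65 (exact permutation test, p = 0.00606), both in the other direction.

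The marker miRNAs of the tissue give the surroundings of these values. The epithelial list has no member in common with miR-203 and miR-205. Of its 8 miRNAs, 4 were called lower in Balbc than in FVB and 0 higher, beside 32.2% of all 261 called lower, with a median of -1.07 beside -0.48. The count ran from 0 of 8 with no scaling to 7 of 8 without FVB replicate 1, and was 2 of 8 without FVB replicate 2. The 4 called under the array median were the miR-183 cluster, miR-182 (-1.72), miR-183 (-2.26) and miR-96 (-1.18), and miR-200c. miR-200c, a repressor of ZEB1 and ZEB2 like miR-205, had a difference of -1.29 (limma, SE 0.41, adjusted p = 0.0429). miR-200a (-0.77, adjusted p = 0.138) and miR-200b (-0.96, adjusted p = 0.105) were not called. Nor were miR-141 (-0.57, adjusted p = 0.186) and miR-429 (-0.81, adjusted p = 0.106), the rest of the miR-200 family. The median in Balbc against FVB moved with the scaling as well, to -0.59 with quantile normalization and to 0.28, in the other direction, with none. In FVB129B6 2 of 8 were called lower than in FVB (limma), miR-182 (-1.36) and miR-183 (-2.49), and 0 higher. Beside them 82 of all 261 were called lower. The median of the 8 was -0.42 there, beside -0.39 over all miRNAs. Between Balbc and FVB129B6 0 of 8 were called (limma) and 1 of 8 had an unadjusted p under 0.05, beside 9 and 55 of all 261. The median of the 8 was -0.61 beside 0.03 over all miRNAs, and between -0.82 and -0.37 over the alternatives. miR-203, at -0.82, lay within the range of the 8 there and miR-205, at 0.35, above all of them.

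**Figure D5:**
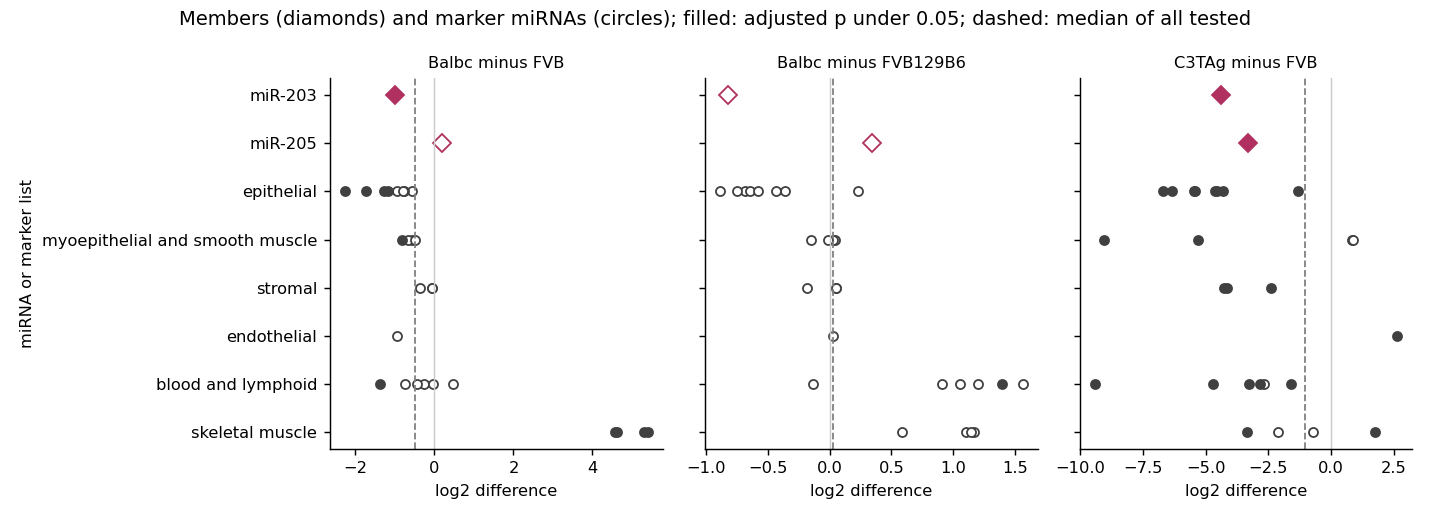
Log2 differences of miR-203 and miR-205 (diamonds) and of the marker miRNAs of each list (circles) in 3 comparisons, filled at an adjusted p under 0.05 (limma), with the median of all 261 miRNAs dashed. Between Balbc and FVB129B6 miR-203 (-0.82) lies among the epithelial miRNAs and miR-205 (0.35) above them, and the skeletal muscle miRNAs stand far to the right between Balbc and FVB.

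Of the markers of other cells, the skeletal muscle miRNAs were called higher than in FVB in both other strains. The summed level of 4 skeletal muscle miRNAs (miR-1, miR-206, miR-133b and miR-133a*) was 3.71 and 6.10 in FVB, 9.24 to 10.03 in Balbc and 8.52 to 8.69 in FVB129B6. All 4 were called higher in Balbc than in FVB, with a median of 4.97, and higher in FVB129B6 than in FVB, with a median of 3.83. Over all miRNAs, 15 and 21 of 261 were called higher in these comparisons. Between Balbc and FVB129B6 the median of the 4 muscle miRNAs was 1.13. There 0 of 4 were called (limma) and 1 of 4 had an unadjusted p under 0.05, beside 9 and 55 of all 261. The summed level of 6 blood and lymphoid miRNAs was 9.66 and 9.72 in FVB, 7.93 to 9.56 in Balbc and 7.25 to 7.76 in FVB129B6. In Balbc 1 of 6 was called lower than in FVB, beside 84 of all 261 miRNAs. In FVB129B6 3 of 6 were called lower than in FVB, beside 82 of all 261. All miRNAs of both lists were well above background on every gland array, and their part in the values of miR-203 and miR-205 was not tested.

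Markers of myoepithelial and smooth muscle cells were called lower than in FVB no more often than miRNAs at large, in Balbc and in FVB129B6. Of the 4 myoepithelial and smooth muscle miRNAs, 1 was called lower in each of these comparisons, beside 84 (Balbc) and 82 (FVB129B6) of all 261. An unadjusted p under 0.05 was reached by 3 of the 4 in each, beside 127 and 137 of all 261 in either direction. miR-143 and miR-145, which are abundant in contractile cells, were not called between Balbc and FVB (-0.58 and -0.66, adjusted p = 0.0859 and 0.0668). miR-222 was called lower (-0.83, adjusted p = 0.0321), and again in FVB129B6 than in FVB (-0.81, adjusted p = 0.0313). The count in Balbc against FVB ran from 0, among others without FVB replicate 2, to 4 without FVB replicate 1. Their summed level was 9.50 and 10.14 in FVB, at most 9.43 in Balbc and 9.07 to 9.31 in FVB129B6. Between Balbc and FVB129B6 0 of 4 were called (limma) and 0 had an unadjusted p under 0.05, beside 9 and 55 of all 261. Of the 3 stromal miRNAs 0 were called in any strain comparison under the array median (limma), 0 of them at an unadjusted p under 0.05. Of all 261, 99 were called in Balbc and 103 in FVB129B6 against FVB, 9 between Balbc and FVB129B6 and 120 across strains. Summed stromal levels were 6.65 to 7.24 over all gland arrays. Over the alternatives the stromal count ran from 0 to 3 in Balbc and in FVB129B6 against FVB. The medians there ran from -0.38 to 1.28 and from -0.42 to 1.30.

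The marker lists were called in both directions in the tumors under the array median. Against FVB, 8 of 8 epithelial miRNAs were called lower (median -5.03), 5 of 6 blood and lymphoid (median -3.07) and 3 of 3 stromal (median -4.13), beside 52.5% of all 261 called lower and a median of -1.04. With detection required on every array none of these lists had a miRNA called, since 15 miRNAs in all were left to test. With quantile normalization 6 of 8 epithelial and 1 of 3 stromal miRNAs were called, and with the 75th percentile 2 of 6 blood and lymphoid. Of the 4 myoepithelial and smooth muscle miRNAs 2 were called lower, miR-143 and miR-145, and 2 were not called. Against all glands these 2, miR-221 (1.09, adjusted p = 0.00344) and miR-222 (1.41, adjusted p = 0.00267), were called higher. Of the 4 skeletal muscle miRNAs 1 was called lower and 1 higher. With the 75th percentile the medians of the blood and lymphoid (0.17), myoepithelial and smooth muscle (1.00) and skeletal muscle (1.82) lists turned above 0, and those of the epithelial and stromal lists were -1.79 and -0.89. Most values behind these counts and medians are of miRNAs not above background in tumors. Such miRNAs entered the fit through the glands, so the counts are given as a description. Neither the counts nor the medians fix a direction. The 1 endothelial miRNA on the array, miR-126-5p, was called higher (2.64, adjusted p = 0.000189; -0.04 with green over red) without being well above background on any tumor array. Between 0 and 4 epithelial, 2 and 3 myoepithelial and smooth muscle, 0 and 2 stromal, 0 and 1 blood and lymphoid and 0 and 2 skeletal muscle miRNAs were well above background on a tumor array. Their part in the values of the members was not tested.

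The members had unlike profiles over the 8 gland arrays. Likeness was measured as the root mean square difference of levels, each miRNA centered on its own mean, among the 204 miRNAs detected on each of the 8 arrays. The 5 miRNAs most like miR-203 were miR-152, miR-98, miR-27b, miR-103 and miR-27a, at 0.34 to 0.39, against 0.53 for the spread of miR-203 itself. The 5 most like miR-205 were miR-709, miR-199b, miR-125b, miR-497 and miR-199a, at 0.21 to 0.24, against 0.39 for its own spread. miR-205 held rank 159 of 203 from miR-203, and miR-203 rank 166 of 203 from miR-205, at 0.76. These ranks describe 8 arrays under the array median and carry no test.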

How the data were processed

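Total RNA was labeled with Hy3 and/or Hy5, and the authors deposited 2-color scans, 1 per sample, and a table of log2 values. The green channel, that of Hy3, was used here. From the deposited green intensity the scanner's Feature Extraction program had already removed background and dye bias (version 9.5.1.1 for tumors, 10.5.1.1 for glands). The deposited log2 values carry the authors' global median normalization.

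Here log2 intensity minus the array median over 1336 plus-strand mouse spots was used. Spots marked as outliers were dropped and the spots of a miRNA averaged. miRNAs with at least 50% of spots well above background on at least 3 arrays of the fit were tested, 261 of 334 in each fit, both members included. Strains were compared by limma's F-test and contrasts on 8 arrays, tumors in a fit of 4 groups on 11 arrays, with Benjamini-Hochberg adjustment over all 261 and a threshold of 0.05. The methods name no test for strains. The within-array difference was tested by exact permutation. The number of arrays limits the precision. The miRNAs named, besides the members, were marker lists, the 5 nearest profiles and the nearest probes. Markers miR-199a*, miR-126-3p, miR-142-3p and miR-133a were not analysed here. Members and lists were chosen with earlier results of these data known. Alternatives were other scalings, background corrections, spot summaries, filters, left-out arrays, averaged Balbc arrays, a replicate block and other fits. The fits were tested on simulated data. Tools were R 4.3.3, limma 3.58.1, Python 3.11.15, pandas 2.3.3 and matplotlib 3.10.9.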

Additional observations from a re-analysis of the deposited data

Results flagged for a closer look

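The comparisons use the green channel alone. The methods name Hy3 and/or Hy5 as the label, but which RNA the red channel held is not given in the sources used here. Signal appeared there too. In the red channel 32 of 32 gland spots of miR-203 and 32 of 32 gland spots of miR-205 were well above background. In tumors, 12 of 12 red spots of miR-205 were, with mean signals of 890 to 2100 units, beside 8 of 12 in green, and 0 of 12 of miR-203. Groups of 2 and 3 arrays were too small for a search for outlying arrays.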

How the results depend on the processing

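The alternatives for counts called, lists and the bound were chosen after seeing the data. Log2 differences follow. miR-203 between Balbc and FVB129B6 (-1.02 to -0.64 over 24 alternatives) and miR-205 there (0.00 to 0.55) kept their direction and stayed uncalled. The fitted differences of miR-203 in tumors (-5.50 to -1.02 against glands, -5.29 to -1.15 against FVB) rest on values not above background and show no stability. With the 75th percentile, miR-203 was -0.56 in Balbc minus FVB, 0.19 in FVB129B6 minus FVB and 0.76 across strains, and miR-205 was 0.21 in FVB129B6 minus FVB, -0.35 in tumors against glands and -0.0696 against FVB. With the median of detected miRNAs, miR-203 was -0.54, 0.35 and 0.90 in the same strain comparisons, and miR-205 was 0.37 in FVB129B6 minus FVB and -0.35 in tumors against FVB. With quantile normalization, miR-203 was -0.30, 0.34 and 0.64, and miR-205 was 0.37 in tumors against glands and 0.50 against FVB. With no scaling, miR-203 was 0.36, 1.24 (called) and 1.24, and miR-205 was 1.54, 1.26 and 1.54 (all called). With normexp, miR-203 was -0.10, 0.60 and 0.70, and miR-205 was 1.01 in Balbc minus FVB and 0.56 in FVB129B6 minus FVB. With green over red, miR-203 was -0.90 in Balbc minus FVB and 0.90 across strains, and miR-205 was 0.86 in FVB129B6 minus FVB. With the pair of Balbc arrays averaged, miR-203 was -0.97 and 0.97 in these comparisons, neither called. With outlying spots kept it was 0.99 across strains (limma, adjusted p = 0.0505). The cause of these changes was not tested.

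miR-203 minus miR-205 was 1.76 across strains with green over red (exact permutation p = 0.00357), and 0.30 and 0.0411 in FVB129B6 minus FVB with quantile normalization and normexp. In tumors against glands it was -5.65 with quantile normalization, 1.65 with normexp, 2.28 with green over red and 1.35 with the detection floor. Against FVB it was 1.25 with normexp, 1.27 with green over red and 0.91 with the floor. The approximate bound for miR-203 was at least 11.5-fold against glands and 7.92-fold against FVB with no scaling, and 6.26-fold against glands with normexp. The cause was not tested.

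Leaving out each array in turn, miR-203 ran from -1.44 to -0.55 in Balbc minus FVB, losing its call without FVB replicate 1, any Balbc array or FVB129B6 replicate 2. Across strains it ran from 0.82 to 1.44, losing it without any Balbc array or FVB129B6 replicate 2 or 3. In FVB129B6 minus FVB it ran from -0.62 to 0.28, positive without FVB replicate 1 or FVB129B6 replicate 1. miR-205 ran from -0.33, without FVB replicate 1, to 0.71 in Balbc minus FVB. It ran from -0.68 to 0.36 in FVB129B6 minus FVB, positive without FVB replicate 2 or FVB129B6 replicate 1. The difference of the members ran from 1.03 to 2.15 across strains and from -0.98 to 0.95 in FVB129B6 minus FVB. Where this left 1 FVB array, that array was assumed to vary like the other groups.

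Deviations of same-numbered arrays from their group means had a mean correlation of 0.04 over 7 pairs (-0.28 to 0.42). Over 14 pairs of unlike number it was -0.02. Centering each group ties these values to one another, so they do not decide whether replicate numbers pair the samples. With the replicate block, miR-203 was -1.08 in Balbc minus FVB (limma, adjusted p = 0.0586) and 0.99 across strains (limma, adjusted p = 0.0757). No other call of a member changed.

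Counts of miRNAs called ran from 47 with the 75th percentile to 178 with no filter in Balbc minus FVB (99 in the report), from 39 to 191 in FVB129B6 minus FVB (103), from 0 to 17 in Balbc minus FVB129B6 (9) and from 60 to 195 across strains (120). The 0 (limma) came with normexp, with detection required on every array, and without FVB replicate 2, Balbc replicate 2 or FVB129B6 replicate 1 or 2, where 26 to 65 had an unadjusted p under 0.05. With the 75th percentile, 31 were higher and 16 lower in Balbc minus FVB, against 15 and 84. When every array had to detect a miRNA, 15 were left to test in tumors, without miR-203, and 13 were called against glands and 12 against FVB, in place of 236 and 230 of 261. Detection on tumor arrays, 15 to 64 miRNAs, limits what their values show.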
